A study of Mus musculus with 24 samples.

Results

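The genes described here are 10 genes of the YAP and SRF pathways, through which cells read the stiffness and tension of their surroundings. They were taken by name from the 53801 genes listed: Cyr61 (Ccn1 in newer annotation), Ctgf (Ccn2), Ankrd1, Ajuba, Amotl2, Lats2, Yap1, Wwtr1, Tead1 and Srf. All 10 were found, and all 10 passed the filter on low values (more than 1 FPKM in 3 or more of the libraries in a comparison) in every comparison below. They were not chosen by a measured value of a comparison, but they were chosen with earlier results of these data known.

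RNA came from murine pancreatic stellate cells (PSC), the resident pancreatic cells that turn into matrix-producing fibroblasts on activation. Pancreata of several wild-type C57BL/6J mice were pooled for each isolation, at between 7 and 10 weeks of age, so no library stands for 1 animal. PSC grew with KPC cells, a murine pancreatic cancer line, or alone as controls, and were taken at 24 h or 72 h of counted time. PSC and KPC cells were kept apart by a membrane with 1 µm pores. In the standard model KPC cells covered the bottom of the well, and in the inverse model they were seeded on the lower face of the membrane whose upper face carried the PSC. This gave 8 groups of 3 libraries. RNA input was 450 ng in the standard and 120 ng in the inverse model. Counting began 24 h after the PSC were seeded, when standard cultures got new medium and the co-cultured PSC joined the KPC cells. Inverse PSC were seeded onto membranes that already carried KPC cells, so they coexisted for 24 h longer than the counted time. The inverse medium was not changed when counting began. Before that, standard PSC grew in a different medium with more serum, while inverse PSC had the later medium from seeding. Model, RNA input, earlier medium and serum, medium change and time of coexistence therefore cannot be told apart.

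YAP (encoded by Yap1) and its paralogue TAZ (encoded by Wwtr1) are co-activators that enter the nucleus on stiff or spread substrates and bind TEAD proteins such as TEAD1 on DNA. The Hippo kinases, LATS2 among them, phosphorylate YAP and TAZ and hold them in the cytoplasm, and AMOTL2 and AJUBA bind YAP or LATS and adjust this step. CYR61, CTGF and ANKRD1 are the readouts most often used for YAP activity, the first 2 as secreted matricellular proteins and the last as a nuclear and sarcomeric ankyrin repeat protein. SRF works beside this pathway and drives actin and myosin genes when its co-activators are released from actin. In activated stellate cells both pathways are known for their link to stress fibres and matrix production. Much of their regulation acts on protein location, which RNA levels do not show.

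The DNA in front of several of these genes holds the sequence that TEAD proteins bind, and it is shown because YAP and TAZ have no DNA-binding domain and act through TEAD. RefSeq promoter windows (GRCm38.p6, 250 bases before to 50 after the gene start) matched 8 of the 10 genes, with 10 windows in all. The motif GGAATG, searched on both strands (CATTCC on the other), was found in windows of 7 of these 8 genes, and in 14.7% of all 32851 windows. Stretches are written 5′ to 3′ on the strand of the gene, and capitals mark the motif.
Cyr61, chr3:145650056-145650115, minus strand: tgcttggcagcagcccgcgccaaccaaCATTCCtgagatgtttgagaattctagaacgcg
Ankrd1, chr19:36120037-36120066, minus strand: gtcactgccaaaGGAATGaccctctcacat
Ankrd1, chr19:36119950-36119979, minus strand: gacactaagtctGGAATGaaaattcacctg
Ajuba, chr14:54577807-54577866, minus strand: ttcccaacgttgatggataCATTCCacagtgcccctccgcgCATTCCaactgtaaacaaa
Amotl2, chr9:102717726-102717755, plus strand: cctgaaactctcaCATTCCtggcatagcag
Yap1, chr9:8004702-8004761, minus strand: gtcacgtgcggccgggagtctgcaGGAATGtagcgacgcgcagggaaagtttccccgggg

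The match lay 103 bases before the gene start of Cyr61, 210 and 123 bases before that of Ankrd1, 186 and 164 bases before that of Ajuba, 65 bases before that of Amotl2 and 141 bases before that of Yap1. In Wwtr1 it lay 136 and 170 bases before its 2 annotated starts, and in Lats2 4 bases after 1 of its 2 starts. The stretches of Cyr61, Ajuba and Yap1 lie outside annotated genes, while those of Ankrd1 and Amotl2 lie in an exon of a transcript of the same gene that GENCODE starts further upstream. Srf was the only one of the 8 genes with no GGAATG in its window, and it held 2 copies of the CArG box, the element that SRF itself binds, 82 and 62 bases before its start. A CArG box, searched as CC, then 6 bases that are each A or T, then GG, occurred in 1.63% of all windows and in no other window of these genes. Capitals mark both boxes in the stretch below, which lies in an intron of Gm26904 on the opposite strand.
Srf, chr17:46556198-46556267, minus strand: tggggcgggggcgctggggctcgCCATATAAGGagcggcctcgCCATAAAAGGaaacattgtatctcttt

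Levels are given as FPKM, a gene's fragments per kilobase, scaled by how many fragments were counted in the library. Between 15932506 and 24798698 fragments were counted in a library, and between 12277 and 13307 genes had an FPKM above 1. Of the PSC and fibroblast markers, Vim, Col1a1, Col1a2, Pdgfra, Pdgfrb, Des and Acta2 were present in all libraries, while the stellate cell marker Gfap did not exceed 0.24 FPKM in any library. By staining, the study reported GFAP, αSMA and vimentin protein in its isolated PSC, and protein was not measured in these libraries. Because the samples are bulk RNA, fewer cells of a type and less RNA per cell cannot be told apart. In the standard model, but not in the inverse model, same-numbered control and co-culture libraries strayed from their group means in the same direction, so a second fit with the replicate number as a block is given for the standard model where it moves a count.

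Secreted YAP targets led the set. Ctgf had a median of 732 FPKM over 24 libraries, with a range from 302 to 2534 FPKM, and Cyr61 had a median of 566 FPKM, with a range from 365 to 791 FPKM. Amotl2, itself a target and an inhibitor of YAP, followed at a median of 468 FPKM, then Tead1 at 159.6 FPKM and Yap1 at 76.96 FPKM. Lats2 (41.6 FPKM), Srf (38.8 FPKM) and Wwtr1 (29.5 FPKM) formed a lower tier whose ranges overlapped. Ajuba had a median of 14.5 FPKM and Ankrd1 of 2.93 FPKM. Ankrd1 rested on 18 to 1417 fragments per library and each other gene on at least 429, so counting error was largest for Ankrd1. The 2 YAP targets in front overlapped each other across the libraries, as did Cyr61 and Amotl2.

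This order depends in part on gene length. The deposited values were divided by the mean length of the annotated transcripts of a gene, which is 2492 bases for the 15 transcripts of Tead1, whose longest has 9964 bases. Per longest transcript, the median of Tead1 was 39.9 FPKM, that of Amotl2 199 FPKM, that of Yap1 29.9 FPKM and that of Lats2 14.96 FPKM, while Wwtr1 kept 29.0 FPKM and Cyr61 566 FPKM. Cyr61 then stood above Ctgf (512 FPKM), Wwtr1 passed Lats2 and Srf, and Yap1 and Wwtr1 lay side by side. Differences between groups for 1 gene do not depend on this length.

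**Figure D1:**
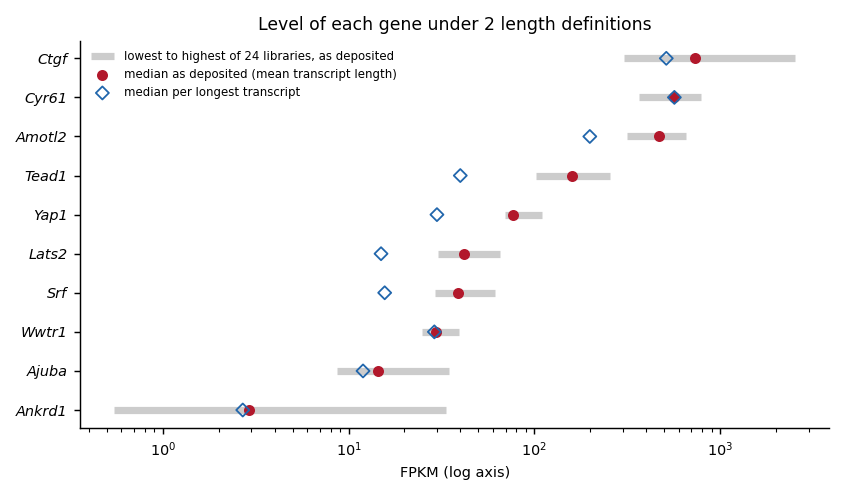
Median FPKM of each gene over 24 libraries on a log axis, as deposited (red points, per mean transcript length) and per longest transcript (blue diamonds), with grey bars from the lowest to the highest library. Tead1 moved furthest, from 159.6 to 39.9 FPKM, and Cyr61 did not move because it has 1 annotated transcript.

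The widest spread among the 10 genes was between replicates of the standard model, not between groups. On the log2 scale the SD within standard groups was 1.92 for Ankrd1 and 1.07 for Ctgf, against 0.40 and 0.47 within inverse groups. Wwtr1 was the steadiest gene, with an SD within groups of 0.097 over both models. Tead1, Srf and Cyr61 lay between these, at 0.30, 0.29 and 0.26.

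Replicate 1 of the standard model stood apart for Ctgf and Ankrd1 in 3 of the 4 groups. Among controls at 24 h, Ctgf was 2534 FPKM in replicate 1, 402 FPKM in replicate 2 and 737 FPKM in replicate 3, and among co-cultured PSC it was 1533, 387 and 644 FPKM. At 72 h, Ctgf was 1812, 302 and 760 FPKM in controls and 819, 509 and 679 FPKM in co-cultured PSC. For Ctgf, replicate 1 was the highest and replicate 2 the lowest library in all 4 standard groups, but in co-cultured PSC at 72 h the libraries lay close together. Ankrd1 was 33.5, 0.548 and 1.67 FPKM in controls at 24 h, 14.1, 1.12 and 1.47 FPKM in co-cultured PSC at 24 h, and 20.9, 1.42 and 1.02 FPKM in controls at 72 h. Replicate 1 was the highest library in these 3 groups. In co-cultured PSC at 72 h it was not, with 1.79 FPKM in replicate 1, 2.35 FPKM in replicate 2 and 1.13 FPKM in replicate 3. Replicate 1 was also the highest of 3 libraries in each standard group for Ajuba, Yap1 and Tead1, and in 3 of the 4 groups for Lats2 and Srf.

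Cyr61 did not share this pattern. It was 593, 622 and 572 FPKM in standard controls at 24 h and 365, 587 and 466 FPKM in co-cultured PSC, and replicate 1 was the lowest library in 3 of the 4 standard groups. At 72 h it was 517, 708 and 791 FPKM in controls and 444, 761 and 566 FPKM in co-cultured PSC. The 2 genes most used as YAP readouts thus ranked the standard libraries differently.

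Other genes moved with standard replicate 1. Acta2, the smooth muscle actin of activated PSC, was 5963 FPKM in replicate 1 of the controls at 24 h against 824 and 1509 FPKM in replicates 2 and 3. The summed level of 5 adipocyte markers was between 23.2 and 68.9 FPKM in the 4 libraries of replicate 1 and between 130 and 434 FPKM in the 8 others. The summed level of 5 macrophage markers was between 6.55 and 8.75 FPKM in replicate 1, between 48.8 and 131 FPKM in replicate 2 and between 9.16 and 22.7 FPKM in replicate 3. None of these markers was at 0 throughout a group. The summed level of 4 mesothelial markers was between 13.4 and 24.5 FPKM in replicate 1 and between 32.1 and 44.8 FPKM in the 8 others. The part of all these markers in the spread was not tested.

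**Figure D2:**
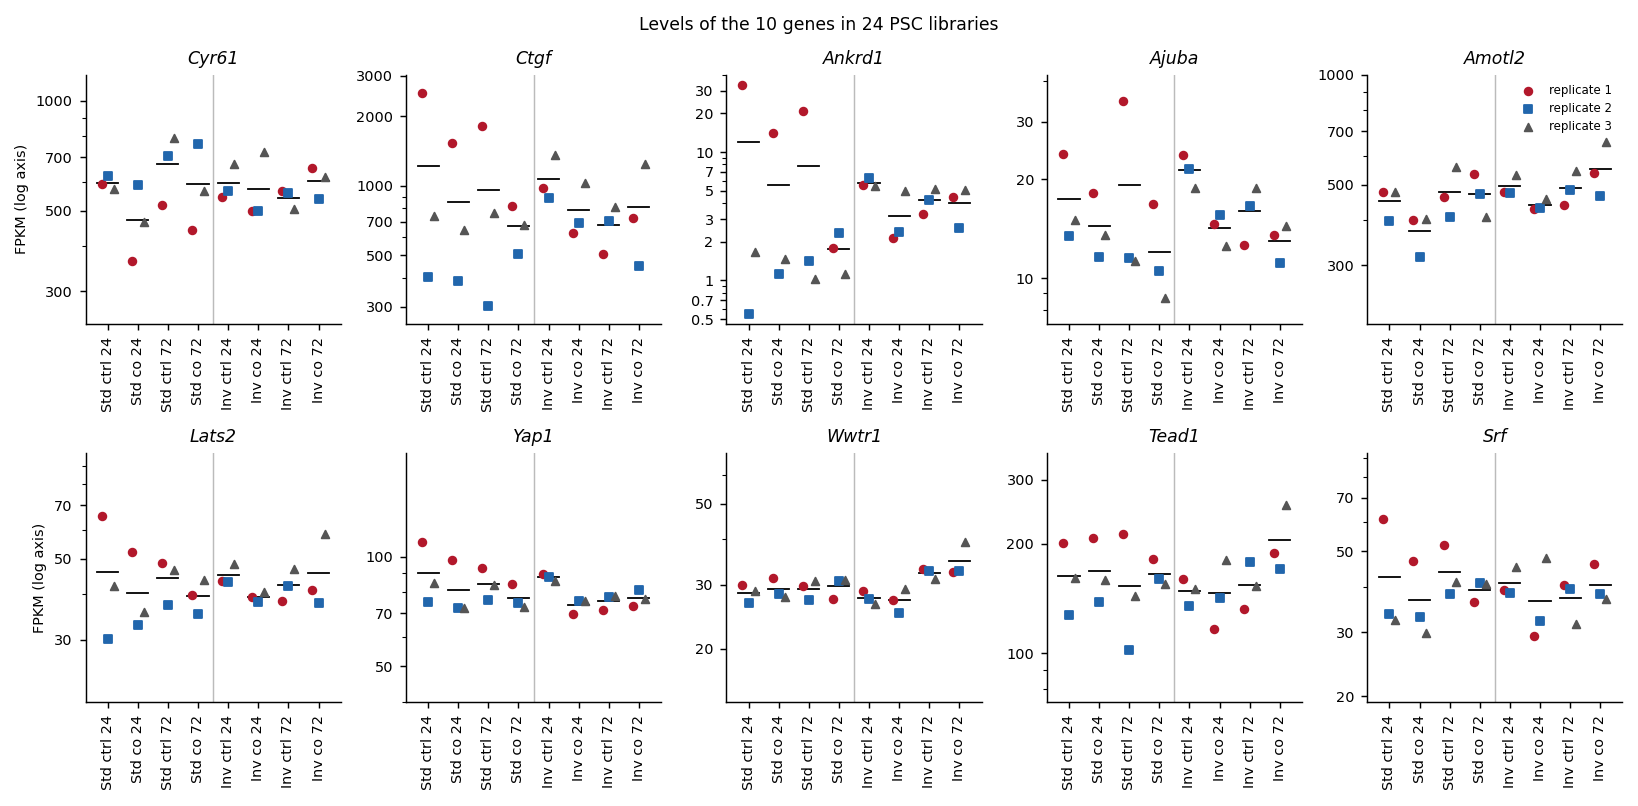
FPKM of each gene (log axis) in the 3 libraries of each of 8 groups, with the standard model left and the inverse model right of the grey line, control (ctrl) and co-culture (co) at 24 h and 72 h. Points are libraries by replicate number and bars are group means. Standard replicate 1 reached 2534 FPKM for Ctgf and 33.5 FPKM for Ankrd1, far above its group, while the inverse libraries lay closer together.

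Co-culture in the standard model was compared with its controls to ask whether factors from distant KPC cells moved these genes. At 24 h, 0 of 10 genes passed the test (limma on log2(FPKM + 0.5), Benjamini-Hochberg adjusted p under 0.05 over all genes tested), beside 0% of the 12859 genes tested. The smallest limma adjusted p of any gene was 0.384, so this 0 is not particular to the set. The study itself reported differing genes in the standard model at both times, with DESeq2, which was not used here. In the set, 0 genes had an unadjusted p under 0.05, beside 2.89% of all genes tested. Means were lower in co-culture for 8 of 10 genes, with a median log2 difference of -0.21 against -0.01 over all genes tested. No gene of the set was without overlap between the groups, beside 7.73% of all genes tested. Amotl2 had 373 ± 49.0 FPKM in co-culture and 450 ± 46.4 FPKM in controls (SD, n = 3), a log2 difference of -0.27 (SE 0.16, limma adjusted p = 1), and it was lower in 3 of 3 same-numbered pairs. With the replicate number as a block, 157 genes (1.22%) passed and again 0 of the 10, with adjusted p-values between 0.127 for Amotl2 and 0.911.

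At 72 h, 0 of 10 genes passed, beside 0% of 12863 genes tested, and again 0 had an unadjusted p under 0.05, beside 6.22% of all genes. With the block 1 gene (0.00777%) passed, and 0 of the 10. Limma's voom on recovered fragments called 0 of 10 at either time. Ajuba was lower in co-culture in 3 of 3 pairs, with 11.99 ± 4.26 FPKM against 19.2 ± 13.5 FPKM (SD, n = 3), a log2 difference of -0.51 (SE 0.48, adjusted p = 0.888). The 95% interval of Cyr61 ran from -0.83 to 0.43 and that of Yap1 from -0.43 to 0.18, whereas that of Ankrd1 ran from -3.24 to 1.53. With the block, the SE of the log2 difference of Ankrd1 was 0.34 instead of 1.48 at 24 h and 0.76 instead of 0.99 at 72 h, with blocked adjusted p-values of 0.798 and 0.703. Without replicate 1, the log2 difference of Ctgf at 72 h was 0.29 (adjusted p = 0.768) instead of -0.19, and that of Ankrd1 0.33 (adjusted p = 0.708) instead of -0.85. At 24 h, leaving it out gave 0.24 (adjusted p = 0.909) instead of -0.25 for Ankrd1 and -0.13 (adjusted p = 0.952) instead of -0.33 for Ctgf. The sign of Ankrd1 at both times, and that of Ctgf at 72 h, therefore rested on that replicate.

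The inverse model brought the KPC cells to the other face of the membrane. At 24 h, all 10 genes had a lower mean in co-culture, 8 of 10 under median-ratio scaling, where Wwtr1 and Tead1 were higher, by 0.033 and 0.023 on the log2 scale. The median log2 difference was -0.20, against -0.06 over all genes tested. No overlap between the groups was seen for 5 genes, namely Ankrd1, Ajuba, Amotl2, Lats2 and Yap1, beside 21.2% of all genes tested. The test was passed by 0 of 10, beside 2.47% of the 12827 genes tested. Unadjusted p-values were under 0.05 for 3 genes, Ajuba, Ankrd1 and Yap1, beside 14.8% of all genes. Voom on recovered fragments called 1, Ajuba, beside 4% of all genes, with an adjusted p of 0.0323 (0.0323 to 0.712 over all alternatives).

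Ajuba, a LIM protein that binds LATS kinases at cell junctions, was 14.6, 15.5 and 12.5 FPKM in co-culture and 23.8, 21.5 and 18.8 FPKM in controls. Every co-cultured library lay below every control, the log2 difference was -0.57 (SE 0.14), and the limma adjusted p was 0.0805. Ankrd1 was 2.14, 2.37 and 4.99 FPKM in co-culture and 5.55, 6.28 and 5.45 FPKM in controls. Replicates 1 and 2 of co-culture were well below the controls and replicate 3 just below them, with a log2 difference of -0.85 (SE 0.28, adjusted p = 0.185). Without replicate 3 of co-culture the log2 difference of Ankrd1 was -1.18 and its adjusted p was 0.0149, the only library whose omission brought a gene of the set past the test at 24 h. Over all alternatives the adjusted p of Ankrd1 ran from 0.0149 to 0.916.

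Ctgf was 628, 694 and 1029 FPKM in inverse co-culture and 976, 887 and 1362 FPKM in controls at 24 h. It had a lower mean in co-culture and the groups overlapped. The log2 difference of -0.46 (SE 0.21) had an adjusted p of 0.354. Yap1 was 69.7, 75.4 and 75.4 FPKM in co-culture and 89.7, 87.6 and 85.8 FPKM in controls. This gap was narrow, a 1.19-fold lower level, but wider than the spread in either group (log2 difference -0.25, SE 0.09, adjusted p = 0.225). Amotl2 was 428, 431 and 458 FPKM in co-culture and 476, 474 and 532 FPKM in controls, and Lats2 was 39.2, 38.0 and 40.4 FPKM against 43.5, 43.3 and 48.3 FPKM. Their groups did not overlap, but the gap between them was smaller than the range of the controls.

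Cyr61 was 498, 500 and 725 FPKM in co-culture and 545, 566 and 673 FPKM in controls at 24 h. The third co-cultured library was the highest of all 6, and the 95% interval of the log2 difference ran from -0.43 to 0.29. Of the remaining genes, Srf had a log2 difference of -0.20 (95% interval -0.61 to 0.21), Tead1 of -0.039 (-0.39 to 0.31) and Wwtr1 of -0.028 (-0.28 to 0.22).

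Summed levels of markers of other cell types also differed between inverse co-culture and controls. For epithelial markers, the summed level of 6 genes was between 1.84 and 43.0 FPKM in co-culture and between 0.30 and 0.37 FPKM in controls at 24 h, and 4 of the 6 were at 0 in all 3 controls. Replicate 2 of co-culture held the 43.0 FPKM. Without it, the log2 differences were -0.71 for Ankrd1, -0.63 for Ajuba and -0.27 for Yap1, and Cyr61 and Wwtr1 were higher, by 0.021 and 0.029. The other 2 co-cultured libraries also exceeded the controls, with 1.84 and 6.48 FPKM. The summed adipocyte markers were between 79.7 and 182 FPKM in co-culture and between 153 and 235 FPKM in controls, with a lower mean for 4 of 4 markers tested and a median log2 difference of -0.58. The summed macrophage markers were between 4.35 and 10.7 FPKM against 10.3 to 13.4 FPKM, with a lower mean for 3 of 3 tested and a median of -0.39. For 4 mesothelial markers the summed level was higher, between 30.5 and 33.8 FPKM in co-culture and between 20.2 and 24.3 FPKM in controls. The 1 mesothelial marker tested had a log2 difference of 0.49. None of these markers that could be tested passed at 24 h, and their part in the values of the 10 genes and of the lists below was not tested.

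After 72 h of inverse co-culture, 8 of 10 genes had a higher mean than in controls, 9 of 10 under median-ratio scaling, with a median log2 difference of 0.11. The median over all genes tested was -0.16, a shift over 0.1, and under median-ratio scaling the median of the set was 0.27. None of the 10 passed the test, beside 12.8% of the 13066 genes tested. Unadjusted p-values were under 0.05 for 0 of them, beside 32.2% of all genes, and voom called 0, beside 16% of all genes. The groups overlapped for all 10 genes, while they did not for 38.3% of all genes tested. Tead1 came closest, with 189, 170 and 255 FPKM in co-culture and 133, 178 and 153 FPKM in controls. Its log2 difference was 0.39 (SE 0.17, adjusted p = 0.163), and the lowest co-cultured library lay below the highest control. Ctgf was 726, 451 and 1243 FPKM in co-culture and 509, 707 and 810 FPKM in controls, and Ankrd1 4.45, 2.57 and 5.03 FPKM against 3.28, 4.25 and 5.13 FPKM. Both targets spread more among co-cultured libraries than their means differed from controls.

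Ajuba had the lowest log2 difference of the set at 72 h (13.01 ± 1.72 against 16.0 ± 3.14 FPKM, SD, n = 3; log2 difference -0.28, SE 0.18, adjusted p = 0.308). Cyr61 had 604 ± 61.3 FPKM in co-culture and 543 ± 33.1 FPKM in controls, with a 95% interval from -0.12 to 0.43. Yap1 had 76.9 ± 3.97 and 75.5 ± 3.47 FPKM, and its interval from -0.19 to 0.24 was the narrowest of the set.

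**Figure D3:**
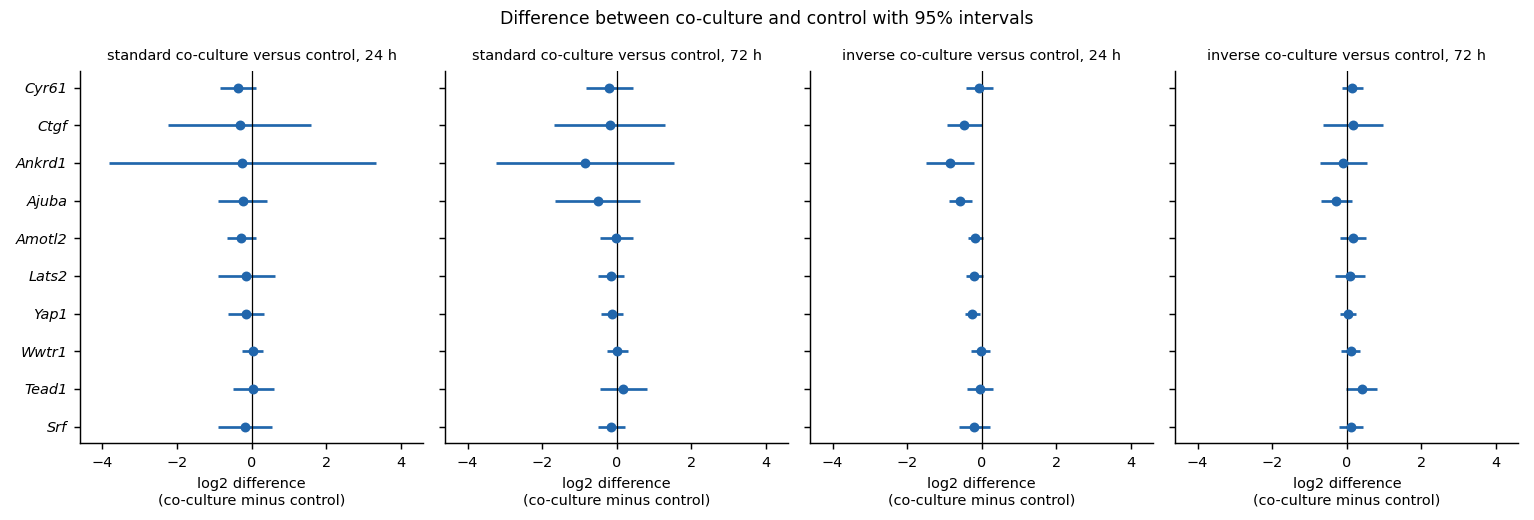
Log2 difference between co-culture and control (points, limma on log2(FPKM + 0.5)) with 95% intervals (lines) for each gene in both models at 24 h and 72 h. All points of the inverse model at 24 h lie left of 0, and intervals of Ankrd1 in the standard model are the widest.

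Since the 10 genes lay lower at 24 h and mostly higher at 72 h in inverse co-culture, the change of the co-culture difference over time was tested itself. It was positive for 10 of 10 genes, with a median of 0.30 on the log2 scale against -0.088 over all genes tested. From 24 h to 72 h the mean went down for 8 of 10 genes in inverse controls and up for 8 of 10 in inverse co-culture, and both enter this change. The test was passed by 0 of 10, beside 0% of the 13722 genes tested, and voom called 0, beside 0.0947%. One gene had an unadjusted p under 0.05, beside 10.7% of all genes. It was Yap1, with a change of 0.28 (SE 0.12, adjusted p = 0.419). That of Ctgf was 0.63 (SE 0.45, adjusted p = 0.635) and that of Ankrd1 0.76 (SE 0.41, adjusted p = 0.524). The same test in the standard model called 0 of 10 beside 0% of 13694 genes.

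Time in culture moved 1 of the 10 genes past the test, in inverse controls. Ctgf was 976, 887 and 1362 FPKM at 24 h and 509, 707 and 810 FPKM at 72 h in PSC cultured alone. All 3 libraries at 72 h lay below all 3 at 24 h, a log2 difference of -0.67 (SE 0.20), 1.59-fold lower, with a limma adjusted p of 0.0493. This was 1 of 10 genes called beside 19.2% of the 13092 genes tested. The call was at the limit: it held in 6 of 15 alternatives, whose adjusted p-values ran from 0.0160 to 0.583. Leaving out any of the 3 controls at 24 h, or replicate 1 or 2 at 72 h, gave adjusted p-values from 0.0595 to 0.130, and only without replicate 3 at 72 h was it 0.0396.

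Ankrd1 and Yap1 also lay lower at 72 h than at 24 h in inverse controls without overlap, and Wwtr1 lay higher, but none of these passed. With Ctgf, 4 of 10 genes were thus without overlap, beside 39.7% of all genes tested. Yap1 went from 87.7 ± 1.93 to 75.5 ± 3.47 FPKM (SD, n = 3; log2 difference -0.21, SE 0.08, adjusted p = 0.0994). Wwtr1, the gene of the paralogue TAZ, went from 27.6 ± 1.15 to 32.2 ± 1.06 FPKM (log2 difference 0.22, SE 0.09, adjusted p = 0.126). The means of the YAP and TAZ genes thus lay in opposite directions over time in these controls. Beside these values, the summed adipocyte markers were between 153 and 235 FPKM at 24 h and between 394 and 829 FPKM at 72 h, and the summed macrophage markers between 10.3 and 13.4 FPKM at 24 h and between 16.7 and 32.9 FPKM at 72 h. Their part in the lower Ctgf was not tested.

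In inverse co-cultured PSC, 0 of 10 genes passed between 72 h and 24 h, beside 0.00784% of the 12758 genes tested. Unadjusted p-values were under 0.05 for 2 genes, Wwtr1 and Tead1, beside 15.3% of all genes, and voom called 0. Tead1 had the largest log2 difference, 0.48 (SE 0.20, adjusted p = 0.304), with 204.8 ± 44.4 against 146 ± 32.0 FPKM (SD, n = 3) and groups that overlapped. Wwtr1 (34.8 ± 3.90 against 27.1 ± 2.11 FPKM) and Amotl2 (553 ± 96.3 against 439 ± 16.5 FPKM, SD, n = 3) were higher at 72 h without overlap, with adjusted p-values of 0.265 and 0.340. These were 2 of 10 genes without overlap, beside 21.7% of all genes tested. Wwtr1 was thus higher at 72 h in both inverse groups, with no overlap in either. Summed adipocyte markers were between 79.7 and 182 FPKM at 24 h and between 22.7 and 94.0 FPKM at 72 h in these libraries. Standard controls and standard co-cultured PSC gave 0 of 10 genes over time, beside 0% of 12963 and 0% of 12805 genes tested.

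The co-culture difference was also compared between the models. At 24 h, 0 of 10 genes passed the test of this difference, beside 0% of 14452 genes tested, and at 72 h again 0 of 10, beside 0% of 14452. All 10 inverse differences at 72 h lay above the standard ones, with a median of 0.23 on the log2 scale against -0.066 over all genes tested. For Ctgf and Ankrd1 this order rested on standard replicate 1. Without that replicate, their standard differences at 72 h were positive and above the inverse ones. Between the controls of the models, 0 of 10 genes passed at 24 h (0% of 12903 genes tested) and 0 of 10 at 72 h (0% of 13106). Unadjusted p-values were under 0.05 for 0 of the 10 genes in all 4 of these tests, beside 1.26% and 3.47% of all genes for the co-culture difference at 24 h and 72 h and 1.74% and 6.18% for the controls, and voom called 0. With the replicate number as a block among the standard libraries only, a fit chosen after seeing the data, 0 of 10 passed the test of the co-culture difference at 24 h (0% of all genes) and 0 of 10 at 72 h (0.118%). The SE of Ankrd1 was then 0.85 instead of 1.47, and its 95% interval covered -2.39 to 1.18 for the 24 h test and -1.02 to 2.55 for the 72 h test.

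The other genes of these pathways were described by 5 lists of named genes. Among 19 tested SRF and MRTF partners and cytoskeletal targets, 8 fell and 0 rose in inverse co-culture at 24 h, beside 1.39% of all genes tested that fell. With the replicate number as a block, 4 genes of this list fell. The median log2 difference of this list was -0.48, against -0.06 over all genes tested. Actg2, the enteric smooth muscle actin, fell from 902 ± 76.97 to 396 ± 17.1 FPKM (log2 difference -1.18, adjusted p = 0.00337). Acta2 fell from 2849 ± 66.9 to 1415 ± 143 FPKM (-1.01, adjusted p = 0.00514) and Cnn1, which encodes the actin-binding calponin, from 590 ± 23.9 to 307 ± 27.6 FPKM (-0.95, adjusted p = 0.00514; SD, n = 3). Srf itself was called in none of the 14 comparisons.

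Of 16 other YAP/TAZ-TEAD target genes tested, 2 fell and 0 rose at 24 h in inverse co-culture, beside 1.39% of all genes tested that fell. Crim1, a membrane protein that binds BMPs, fell from 49.4 ± 5.95 to 28.4 ± 4.43 FPKM (log2 difference -0.79, adjusted p = 0.0303), and Ccdc80, a matrix protein, from 904 ± 41.1 to 670 ± 22.7 FPKM (-0.43, adjusted p = 0.0441). Neither passed with the replicate number as a block (limma adjusted p = 0.112 and 0.156). None of the 23 Hippo kinases and adaptors, 9 SRF and TCF immediate early targets and 22 adhesion and force sensing genes tested passed at 24 h.

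At 72 h of inverse co-culture, 9.57% of all genes tested fell and 3.27% rose. In the SRF and cytoskeletal list 1 of 19 fell and 1 rose. Fhl2, a LIM co-regulator, fell from 216 ± 28.3 to 121 ± 8.81 FPKM (log2 difference -0.82, adjusted p = 0.00832), and Myh9, the heavy chain of non-muscle myosin, rose from 751 ± 131 to 1268 ± 190 FPKM (0.76, adjusted p = 0.0286). Among 17 other YAP/TAZ-TEAD targets, 4 fell and 1 rose. The ecto-enzyme gene Nt5e fell from 2.81 ± 1.14 to 0.549 ± 0.334 FPKM (-1.65, adjusted p = 0.0382). Only its controls exceeded 1 FPKM, so Nt5e passed the filter through the group where it was high, and its fall is no support. F3, the tissue factor gene, fell from 676 ± 70.9 to 430 ± 77.1 FPKM (-0.66, adjusted p = 0.0345). The kinase gene Nuak2 rose from 6.49 ± 0.666 to 14.1 ± 2.00 FPKM (1.06, adjusted p = 0.00804). Asap1 and Ptpn14 also fell, both by 0.55 on the log2 scale (adjusted p = 0.0186 and 0.0392), and are named here to complete the count. These targets of the same co-activators moved in opposite directions.

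Among 23 Hippo genes, 1 rose and 1 fell at 72 h. Dchs1, a large protocadherin upstream of the pathway, rose from 2.84 ± 0.254 to 7.67 ± 1.43 FPKM (log2 difference 1.28, adjusted p = 0.00841), and Vgll4, a co-repressor that competes with YAP for TEAD, fell from 51.1 ± 4.21 to 31.4 ± 5.30 FPKM (-0.71, adjusted p = 0.0191). Of 22 adhesion and force sensing genes, 2 rose and 1 fell. The Hippo list and this list thus lay near the 12.8% of all genes tested that were called either way. Their calls are given as single genes, not as a result about either list. Lmnb1 (lamin B1 of the nuclear envelope) rose by 0.98 and Pxn (paxillin of focal adhesions) by 0.54 on the log2 scale, and Syne2, a nesprin that ties the nucleus to the cytoskeleton, fell by 0.88, with adjusted p-values of 0.0269, 0.0168 and 0.0126. Elk3, an SRF partner, rose by 0.45 (adjusted p = 0.0421), the only call among 9 immediate early targets. With the replicate number as a block, Vgll4, Lmnb1, Elk3 and, of the genes named before, Myh9 and Ptpn14 did not pass. Beside these values, summed macrophage markers were between 4.75 and 9.95 FPKM in co-culture and between 16.7 and 32.9 FPKM in controls at 72 h, adipocyte markers between 22.7 and 94.0 FPKM and between 394 and 829 FPKM, and epithelial markers between 1.504 and 7.78 FPKM and between 0 and 0.34 FPKM. The same test called 4 of 4 adipocyte markers tested and 3 of 4 macrophage markers tested lower, with list medians of -3.73 and -1.57. It called the 1 epithelial marker tested, Krt19, higher. Krt19 exceeded 1 FPKM only in co-culture, and the macrophage marker Adgre1 only in controls. With the replicate number as a block, 4 adipocyte, 1 macrophage and 0 epithelial markers passed. The part of these markers in the differences of the lists was not tested.

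**Figure D4:**
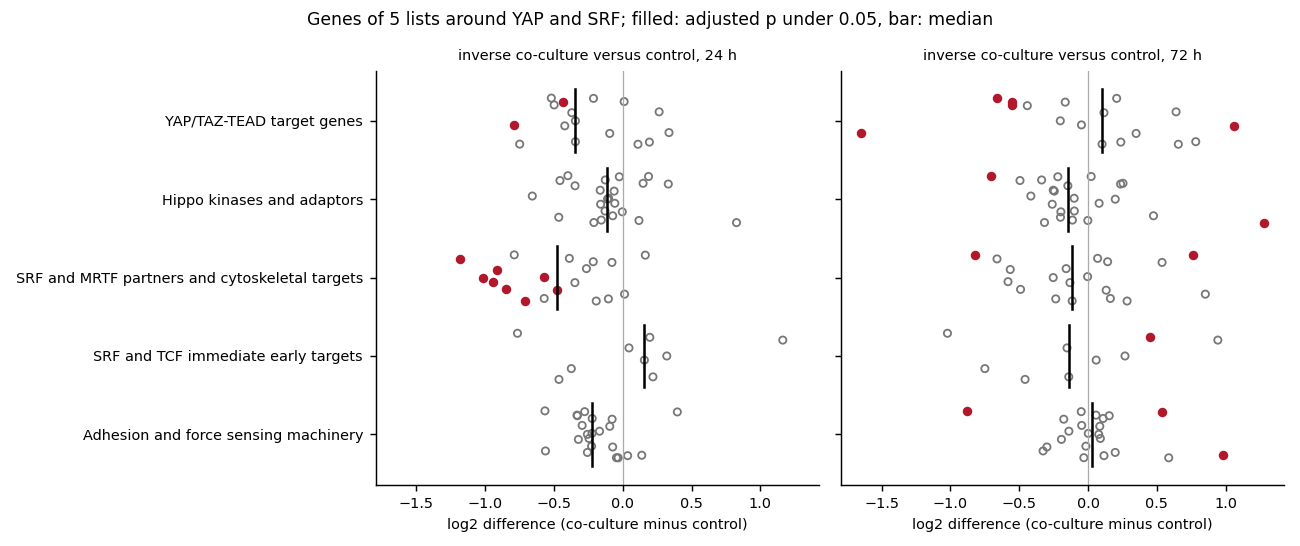
Log2 difference between inverse co-culture and control at 24 h and 72 h for genes of 5 lists around YAP and SRF that passed the filter on low values. Each circle is a gene, filled where the adjusted p was under 0.05, and bars are list medians. Of the cytoskeletal SRF targets, 17 of 19 lie left of 0 at 24 h, with 8 filled, and 1 filled on either side at 72 h.

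The cytoskeletal list also fell in inverse controls between 24 h and 72 h, where 13 of 19 genes fell and 0 rose, beside 9.05% of all genes tested that fell. Acta2 was 2835, 2790 and 2922 FPKM in these controls at 24 h and 763, 1347 and 1137 FPKM at 72 h. In co-cultured PSC it was 1474, 1519 and 1253 FPKM at 24 h and 900, 563 and 1362 FPKM at 72 h. Co-cultured libraries were below controls at 24 h without overlap, and the groups overlapped at 72 h. In the standard model 0 genes of the 5 lists passed at either time, and 1 cytoskeletal gene, Fhl2, fell at 24 h with the replicate block, from 204 ± 14.5 to 126 ± 29.3 FPKM (log2 difference -0.71, blocked adjusted p = 0.0293, SD, n = 3). Fhl2 was named after its values were seen, and its adjusted p without the block was 1.

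Over all 24 libraries, the genes whose log2 levels ran most like each of the 3 YAP readouts were found by Pearson's r among 14451 other genes. Those of Ctgf were Actn1 (r = 0.95), which encodes an actin crosslinker, Fermt2 (0.94), an integrin activator, Crim1 (0.94), Rab23 (0.94) and Tnfrsf11b (0.93). For Ankrd1 they were Cyp26b1 (0.93), Gm14005 (0.92), Rassf3 (0.92), Tgfb2 (0.91) and Siglecg (0.91). Cyr61 ran most like Edn1 (0.78), Isg20 (0.75), Gm6485 (0.72), Ier5 (0.71) and Adm (0.71), at lower values and with no gene in common with the other lists. These values describe libraries that are not independent and that share the spread of standard replicate 1. Without the 4 libraries of that replicate, Actn1 and Fermt2 stayed the first 2 for Ctgf (0.91 and 0.90), Tgfb2 went to place 43 for Ankrd1 (0.78) and Ier5 came first for Cyr61 (0.77).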

How the data were processed

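PSC RNA was polyA-selected and sequenced as paired ends. The authors had the reads aligned with HISAT2 2.0.5 to GRCm38.p6, counted per gene with featureCounts 1.5.0-p3 at default settings, which disregard strand, and deposited FPKM values, relative to each library's total and with no further scaling. Their DESeq2 1.20.0 counts were not used here. The lengths behind the FPKM values equal the mean annotated transcript length in GENCODE M21, since 28111 of 28848 genes above 0 (97.4%) then gave whole fragments within 0.1 fragment for values of up to 100 fragments.

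Groups came from the labels. Log2(FPKM + 0.5) was compared with limma 3.58.1 (moderated test with intensity trend, two-sided, R 4.3.3) over genes exceeding 1 FPKM in 3 or more libraries of the comparison, with Benjamini-Hochberg adjustment and a limit of 0.05. With 3 against 3 libraries an exact permutation test cannot go below 0.1, so none is given. Libraries are said to be biological replicates of pooled isolations. Same-numbered standard libraries deviated together (correlations between 0.48 and 0.82 in the co-culture comparisons), inverse ones did not (between -0.17 and 0.10). Over time, inverse ones gave -0.018 to 0.15 in controls and 0.047 to 0.21 in co-culture. Whether equal numbers share an isolation is not stated. The members and lists were chosen with earlier results of these data known. Named genes were all members, up to 3 called genes with the largest fold change per list and co-culture comparison, all markers, and the 5 genes most like Cyr61, Ctgf and Ankrd1. Alternatives were pseudocounts of 1 and 0.1, no filter, a mean FPKM above 5, median-ratio scaling, no trend, voom on recovered fragments, the replicate block, all 24 libraries, and each library left out. Leaving out standard replicate 1, dividing by the longest transcript and a block among standard libraries only were chosen after seeing the data. Fits were tested on simulated data. Python 3.11.15 was used for tables. The genotype of the KPC line is not reported here.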

Additional observations from a re-analysis of the deposited data

How the results depend on the processing

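Of 237 recomputed counts of called genes over 14 comparisons, 226 kept the count. In inverse co-culture at 24 h the count rose from 0 to 1 with voom on recovered fragments, and was 0 to 1 with 1 library left out (1 without co-culture replicate 3). In inverse controls over time, the call of Ctgf was lost (0 genes) with a pseudocount of 0.1 (adjusted p = 0.0505), without a filter (0.157), without the intensity trend (0.0945) and with all 24 libraries in 1 model (0.583), and the count was 0 to 1 with 1 library left out. No filter tests more genes, and the cause of the other losses was not tested.

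Of 484 recomputed log2 differences (31 values), 451 kept direction and call, and 22 changed sign, none of them called. Under median-ratio scaling Wwtr1 was 0.033 and Tead1 0.023 in inverse co-culture at 24 h. Without standard replicate 1, Ankrd1 was 0.24 at 24 h and 0.33 at 72 h, and Ctgf 0.29 at 72 h. With 1 library left out, standard log2 differences at 24 h ran from -0.91 to 0.41 for Ctgf and from -1.26 to 1.25 for Ankrd1, and at 72 h from -0.84 to 0.45 for Ctgf, from -1.54 to 0.36 for Ankrd1 and from -0.78 to 0.016 for Ajuba. In inverse co-culture they ran at 24 h from -0.25 to 0.025 for Cyr61, from -0.081 to 0.029 for Wwtr1 and from -0.20 to 0.11 for Tead1, and at 72 h from -0.013 to 0.062 for Yap1. The cause of these changes was not tested.

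The replicate number as a block called the same number of the 10 genes, 0 or 1, in each of the 10 comparisons where it could be fitted, and so did a block among standard libraries only (0 genes) in the 2 tests between models. In the inverse model, same-numbered libraries did not deviate together in the co-culture comparisons, and whether they share an isolation is not stated. There the block left 88 instead of 317 genes called at 24 h and 902 instead of 1678 at 72 h. It left 4 instead of 8 cytoskeletal genes that fell at 24 h. At 72 h the block did not call Vgll4, Myh9, Lmnb1, Elk3 or Ptpn14 (adjusted p between 0.0554 and 0.0700). It called 3 other genes of the immediate early list, Fos and Fosb lower and Egr3 higher (0.0282 to 0.0316). At 24 h it did not call Crim1 or Ccdc80 (0.112 and 0.156). Ankrd1 rested on 18 to 1417 fragments per library, so its values at the low end carry the most counting error.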
